A study of Ovis aries and Bos taurus with 15 samples.

Results

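Genes with SLC25A, TOMM and TIMM names encode carriers and import proteins, nearly all of mitochondria, and 45 of the 9155 genes named on the array bear such a name; the exceptions SLC25A17 and TOMM34 are described below. A probe set counted as a member when the platform annotation gave it exactly 1 gene symbol and that symbol began with SLC25A, TOMM or TIMM. This rule took 61 of the 24016 probe sets tested, 39 for 27 carrier genes and 22 for 18 import genes, and used no measured value. Where a gene had several probe sets, the one with the highest mean over the 15 arrays stood for it. RNA of cultured endothelial cells was hybridised to Affymetrix arrays with bovine probes in 3 groups of 5. Ovine cells labelled PAEC received either the solvent DMSO, called vehicle here, or GW9662 at 5 µM, in both cases for 24 h. GW9662 is an antagonist that blocks the nuclear receptor PPARγ, and the study's title places the comparison in pulmonary hypertension. The third group held bovine cells labelled BAEC and called control, with no treatment named, and all 3 groups grew in DMEM with 10% FBS. Bovine control and ovine vehicle therefore differ in species and in the cells' label, which cannot be told apart, and no label says whether the bovine cells received DMSO. No label says that the 5 samples of a group came from separate cultures or animals, so the spread between them may be technical.

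The inner mitochondrial membrane is closed to most metabolites, and carriers of the SLC25 family pass nucleotides, phosphate, carboxylates, amino acids, cofactors and iron across it. Nearly all mitochondrial proteins are made in the cytosol: the TOM complex admits them through the outer membrane, the TIM23 complex takes those with a cleavable presequence into the matrix or inner membrane, and the small TIM chaperones with the TIM22 complex insert the carriers themselves. The import machinery thus delivers the carriers, and TOMM70 is the outer membrane receptor best known for receiving them. Endothelial cells make much of their ATP by glycolysis, and their mitochondria are known for roles in redox balance, calcium handling and cell survival.

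The deposited values are on a log2 scale and ran from 0.90 to 14.07. A probe set with a mean under 3, as 45.9% had, is called dim, because such a value cannot be told from no signal. Array medians lay between 3.18 and 3.27, and the correlation between arrays of a group was at least 0.994. Of 9 measured endothelial markers, PECAM1 (11.68 in bovine control, 11.63 in vehicle and 11.48 with GW9662), CDH5 (11.64 in bovine control, 11.47 in vehicle and 11.35 with GW9662), EMCN, ENG, ROBO4, TEK and TIE1 were bright in all 3 groups. VWF, a defining endothelial gene, was dim in all of them (2.27 to 2.28 in bovine control, 2.30 to 2.34 in vehicle), and KDR, the VEGF receptor, was dim in vehicle and low elsewhere (3.08 in bovine control, 2.64 in vehicle and 3.79 with GW9662). All 5 fibroblast and all 5 epithelial markers were dim. The summed signals of endothelial, smooth muscle and leukocyte markers are given beside each comparison. The 3′ minus 5′ difference of the control transcripts, a measure of RNA integrity and labelling, averaged 0.88 ± 0.043 in bovine control, 1.18 ± 0.085 in vehicle and 0.96 ± 0.074 with GW9662, and no vehicle array overlapped either other group. In bulk RNA, fewer cells of a type and less RNA per cell cannot be told apart.

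By its brightest probe set, no carrier or import gene passed the adjusted threshold of 0.05 in limma for GW9662-treated cells against vehicle. A dimmer probe set of TOMM70 did pass, as given with the probe sets. For GW9662 against vehicle 0 of 27 carriers and 0 of 18 import genes passed, where 0.218% of all named genes did (20 of 9155). At an unadjusted p under 0.05, 4 genes were higher (SLC25A20, SLC25A40, SLC25A6 and TIMM9) and 2 were lower (SLC25A4 and TIMM17B). That is 8.89% and 4.44% of the 45, beside 7.68% and 12.5% of all named genes, so these small counts say nothing particular of carriers or import. The arrays of both groups did not overlap for 2 of the 45, SLC25A20 (higher) and SLC25A34 (lower, but dim), against 11.6% of all named genes. Most members are not dim, and among all named genes with a mean of 3 or more these shares differ. Of those, 4.7% did not overlap, and 10.9% were higher and 9.2% lower at an unadjusted p under 0.05. With such a mean, 1 of 23 carriers and 0 of 18 import genes did not overlap. The summed linear signal of the 9 endothelial markers was 8076 to 9003 with GW9662 and 9224 to 9928 in vehicle, without overlap. The brightest genes weigh most in this sum, and the mean log2 value of the same 9 overlapped (8.14 to 8.39 against 8.21 to 8.28). None of the 9 passed, and 7 differences were negative, among them ENG (-0.23), ROBO4 (-0.18) and PECAM1 (-0.15). The 2 positive ones were KDR (1.15, adjusted p = 0.217) and TEK (0.0013). The summed signal of 5 smooth muscle markers was 146 to 187 against 152 to 197, and that of 5 leukocyte markers 121 to 144 against 112 to 139. The part of these markers in the differences was not tested. The median log2 difference was -0.0093 for carriers, -0.031 for import genes and -0.015 for all named genes.

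The precision of the 5 arrays a group sets a bound on what was missed. Among genes with a mean of 3 or more, the 95% interval of the difference lay within a 2-fold change in either direction for 23 of 23 carriers and 18 of 18 import genes, and within a 1.5-fold change for 22 and 17. Of all named genes at such a mean, 6261 of 6335 lay within 2-fold and 5673 within 1.5-fold, so the members are not set apart by this. These intervals come from a fit of the groups alone, although vehicle and GW9662 arrays did not overlap in the 3′ minus 5′ measure. Over 20 alternative settings TIMM44 ran from -0.53 to 0.20 and TIMM50 from -0.52 to 0.15. Both went past the low end of their intervals. SLC25A25, which was close to dim, is among the 23 carriers. The intervals do not show that a gene did not change, but in this fit a 2-fold change lies outside each of the members'. As the spread between arrays may be technical, this bound holds for these samples and not for further cultures or animals. The other 4 carriers, SLC25A15, SLC25A34, SLC25A42 and SLC25A48, were dim in both groups, and their intervals bound nothing. Carrier differences ran from -0.22 to 0.49 with adjusted p between 0.212 and 0.939. Import differences ran from -0.23 to 0.15 with adjusted p between 0.221 and 0.990. Which sign prevailed depended on the scaling of the arrays: 11 carriers were positive and 16 negative as deposited, against 20 and 7 after each array was centred on its median. For import genes the split went from 5 and 13 to 11 and 7. With a second quantile normalisation it was 9 and 18 for carriers and 3 and 15 for import genes. As the scalings disagree, no direction is given for either family.

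Against ovine vehicle, the bovine arrays showed a different picture, with carriers differing both ways and most import genes not past the threshold. For bovine control against ovine vehicle 13 of 27 carriers passed (6 higher and 7 lower in bovine), and 5 of 18 import genes (3 higher and 2 lower). The citrate carrier SLC25A1 and the basic amino acid carrier SLC25A29 were measured above 2-fold, both higher in bovine. SLC25A15, at 0.996 on the log2 scale, lay just under that line with dim vehicle arrays, and 3 carriers passed 2-fold with centred arrays or with array weights. Of all named genes 21.9% passed as higher and 27.4% as lower in bovine, 49.2% in all. In the values as deposited, the carriers' share of 48.1% lies close to that background, and the import genes' 27.8% lies below it, a difference that was not tested. Among genes with a mean of 3 or more the background was 54.4%, beside 12 of 23 carriers and 5 of 18 import genes. At 2-fold, 3.71% of all named genes were higher and 2.96% lower, 6.67% in all, beside the 2 carriers and 0 import genes. The arrays did not overlap for 13 carriers and 3 import genes, where 50.8% of all named genes did not. With a mean of 3 or more they did not overlap for 10 of 23 carriers and 3 of 18 import genes, beside 44.7%. The calls over all named genes split 2001 higher to 2507 lower as deposited, and 2014 to 1218 with each array centred on its median, while the carriers' split stayed at 6 and 7. Of the 9155 named genes, 3232 passed with centring, 3390 with a second quantile normalisation and 2872 with a replicate block, against 4508 as deposited. In the same settings 13, 13 and 12 carriers passed, and 4, 5 and 5 import genes. How the members' shares compare with the background thus depends on the setting.

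Several facts stand beside this comparison. The probes were designed on bovine sequence, and how well ovine RNA binds each of them was not tested, so a difference in signal cannot be told apart from a difference in binding. In a fit that carried the 3′ minus 5′ measure of the arrays as a covariate, only SLC25A1, SLC25A29 and SLC25A3 among carriers and TOMM34 among import genes still passed, and over all named genes 852 did, against 4508. Since the groups did not overlap in the covariate, the SE of the 14 lost calls was 2.12 to 2.84 times as large. Of those 14 differences 13 kept their sign, and 8 were larger and 6 smaller in size than without the covariate. SLC25A20 went from -0.71 to -0.99 and TOMM40 from 0.78 to 0.90, whereas SLC25A6 went from 0.86 to 0.53 and SLC25A40 from 0.71 to -0.17 (adjusted p = 0.994). The summed linear signal of the endothelial markers was 10615 to 11668 in bovine control, above the vehicle range, with ROBO4 (1.67), TEK (0.67) and CDH5 (0.17) higher in bovine, ENG (-0.29) lower and VWF lower between dim values. That of 5 smooth muscle markers was 489 to 593 in bovine control and 152 to 197 in vehicle, carried by TAGLN (9.0 against 7.18), with the other 4 (ACTA2, CNN1, DES and MYH11) dim. That of 5 leukocyte markers was 27.0 to 28.4 against 112 to 139, carried by CD14 (2.27 against 6.69), with PTPRC, CD3E, CD68 and ITGB2 dim. Their part in this comparison was likewise not tested.

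**Figure D1:**
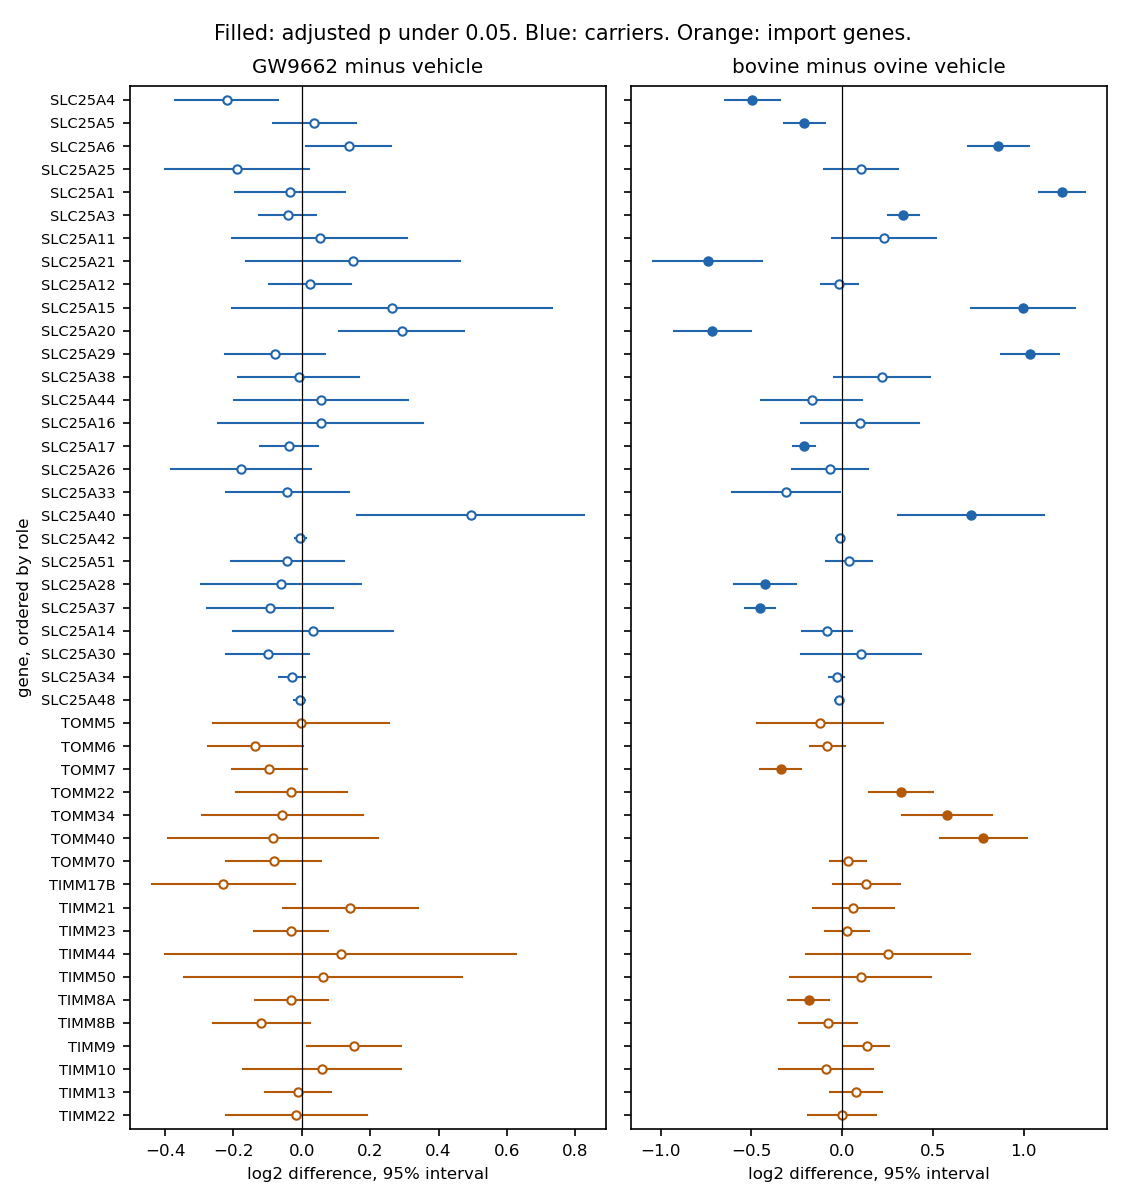
Log2 differences (horizontal axis) with 95% intervals for the 45 genes, ordered by role, for GW9662 minus vehicle on the left and bovine control minus ovine vehicle on the right, 5 arrays a group; filled circles passed the adjusted threshold and open ones did not. None is filled on the left, while 13 carriers (blue) and 5 import genes (orange) are filled on the right, with SLC25A1 at 1.21 farthest from 0.

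The adenine nucleotide carriers exchange ADP for ATP and so link ATP synthesis to the cytosol. SLC25A4, the ADP/ATP carrier typical of muscle and heart, read 8.18, 8.18, 8.18, 8.18 and 8.07 in bovine control, 8.56, 8.83, 8.45, 8.75 and 8.68 in vehicle and 8.39, 8.40, 8.49, 8.45 and 8.44 with GW9662. All 5 bovine arrays lay below all 10 ovine ones, and the GW9662 arrays lay at or below the low end of the vehicle range, only the lowest vehicle array falling among them. The bovine difference was -0.49 (SE 0.067, limma adjusted p = 0.000479). For GW9662 it was -0.22 (SE 0.066, adjusted p = 0.217), the lowest value among carriers, and it did not pass.

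SLC25A6, the ADP/ATP carrier found in most tissues, went the other way in bovine cells. Its brightest probe set read 11.50, 11.62, 11.26, 11.47 and 11.57 in bovine control, 10.57, 10.68, 10.78, 10.54 and 10.56 in vehicle and 10.82, 10.87, 10.71, 10.68 and 10.73 with GW9662. The bovine arrays stood clear above both ovine groups, by 0.86 over vehicle (SE 0.073, adjusted p = 2.2e-05, 1.82-fold). The GW9662 difference of 0.14 did not pass (adjusted p = 0.222), and the ovine groups overlapped. SLC25A5, the ADP/ATP carrier of dividing cells, averaged 11.16 ± 0.059 in bovine control, 11.36 ± 0.10 in vehicle and 11.40 ± 0.074 with GW9662, lower in bovine by a small margin (-0.21, adjusted p = 0.0116) with overlapping arrays; a second probe set of the gene read the opposite, as given with the probe sets. SLC25A25, a calcium-regulated carrier that exchanges ATP-Mg for phosphate, was close to dim, at 3.20 to 3.45 in bovine control, 3.08 to 3.55 in vehicle and 2.89 to 3.17 with GW9662. Its differences were 0.10 for bovine and -0.19 for GW9662, and neither passed (adjusted p = 0.343 and 0.254).

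Among the carriers of phosphate and carboxylates, SLC25A1 gave the largest difference of all members. SLC25A1 exports citrate, the cytosolic source of acetyl-CoA for lipid synthesis, and read 9.01, 9.29, 9.13, 9.07 and 9.01 in bovine control against 7.92, 7.99, 7.84, 7.86 and 7.83 in vehicle and 7.99, 7.91, 7.76, 7.63 and 7.97 with GW9662. Each bovine array was more than 1 log2 unit above every ovine array, and the ovine groups lay in the same range. The difference was 1.21 (SE 0.057, 2.32-fold, adjusted p = 3.86e-07), and it kept its call in all 20 alternatives, between 1.17 and 1.29. SLC25A3, which brings in the phosphate for ATP synthesis, was bright throughout, at 11.60 to 11.69 in bovine control, 11.24 to 11.41 in vehicle and 11.25 to 11.32 with GW9662. It was higher in bovine by 0.34 (SE 0.038, adjusted p = 0.000131) with no overlap, a modest 1.26-fold, and its GW9662 difference was -0.041 (adjusted p = 0.448).

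SLC25A21, the carrier of oxoadipate and related oxodicarboxylates, stood lower in bovine control, at 3.32, 3.23, 3.24, 3.17 and 2.75 against 3.57, 4.09, 4.03, 3.73 and 3.98 in vehicle and 4.10, 3.82, 3.78, 4.36 and 4.09 with GW9662. The highest bovine array was below every ovine one, and 1 bovine array was under the dim limit. Its bovine difference was -0.74 (SE 0.13, adjusted p = 0.00264), and its GW9662 difference 0.15 did not pass (adjusted p = 0.462). SLC25A11, the oxoglutarate and malate exchanger of the malate-aspartate shuttle, ranged over 6.27 to 6.61 in bovine control, 5.87 to 6.44 in vehicle and 6.25 to 6.32 with GW9662. The wide vehicle group covered both others in part, and neither difference passed (0.23 for bovine, adjusted p = 0.149; 0.053 for GW9662, adjusted p = 0.759).

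The carriers of amino acids and acylcarnitine held the member with the smallest p for GW9662. SLC25A20 carries acylcarnitines into the matrix for fatty acid oxidation, a process whose genes PPAR receptors are known to regulate. It read 7.02, 7.26, 7.31, 7.25 and 7.48 in vehicle, 7.70, 7.49, 7.51, 7.58 and 7.49 with GW9662 and 6.65, 6.52, 6.44, 6.74 and 6.39 in bovine control. Every GW9662 array was above every vehicle array, but the highest vehicle array nearly touched the lowest GW9662 array. The difference of 0.29 (SE 0.081, 95% interval 0.11 to 0.47) had an unadjusted p of 0.00571 and an adjusted p of 0.212, so it did not pass. Bovine control was lower than vehicle, with a difference of -0.71 (SE 0.094, 1.64-fold, adjusted p = 0.000368), with all bovine arrays below the ovine ones. Its second probe set differed by 0.21 for GW9662 and -0.24 for bovine, neither past the threshold (adjusted p = 0.584 and 0.379).

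SLC25A29, which carries arginine, lysine and other basic amino acids, was the second member above 2-fold. Its arrays read 6.57, 6.68, 6.94, 6.76 and 6.83 in bovine control, 5.82, 5.75, 5.73, 5.75 and 5.57 in vehicle and 5.57, 5.49, 5.79, 5.72 and 5.65 with GW9662, the bovine group standing clear above the ovine groups, which shared a range. The bovine difference was 1.03 (SE 0.071, 2.05-fold, adjusted p = 5.15e-06). It lies near the 2-fold line: it was 0.928 with a second quantile normalisation, its lowest value, 0.987 without bovine array 3 and 0.995 without vehicle array 5. Each of these array omissions left 1 carrier, SLC25A1, past 2-fold. SLC25A15, the ornithine carrier of the urea cycle, read 3.21, 3.38, 3.53, 3.87 and 3.14 in bovine control and 2.54, 2.40, 2.43, 2.36 and 2.42 in vehicle. The difference was 0.996 (SE 0.13, adjusted p = 0.000303) and 0.885 without bovine array 4. All vehicle arrays were dim, so the size of this difference is uncertain. With GW9662 it read 2.57, 2.55, 3.54, 2.40 and 2.40, where 1 array stood apart above the dim limit and the other four stayed dim (difference 0.26, adjusted p = 0.397).

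The other carriers of this group did not differ past the threshold in either comparison. SLC25A12, a calcium-regulated aspartate/glutamate carrier, ranged over 7.26 to 7.49 in bovine control, 7.31 to 7.49 in vehicle and 7.34 to 7.60 with GW9662, with all 3 groups overlapping. Its differences were -0.015 for bovine (adjusted p = 0.796) and 0.024 for GW9662 (adjusted p = 0.769). SLC25A38, a glycine carrier needed for haem synthesis, averaged 6.17 ± 0.23 in bovine control, 5.96 ± 0.15 in vehicle and 5.95 ± 0.10 with GW9662. SLC25A44, which carries branched-chain amino acids, averaged 6.12 ± 0.14 in bovine control, 6.29 ± 0.26 in vehicle and 6.34 ± 0.072 with GW9662.

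**Figure D2:**
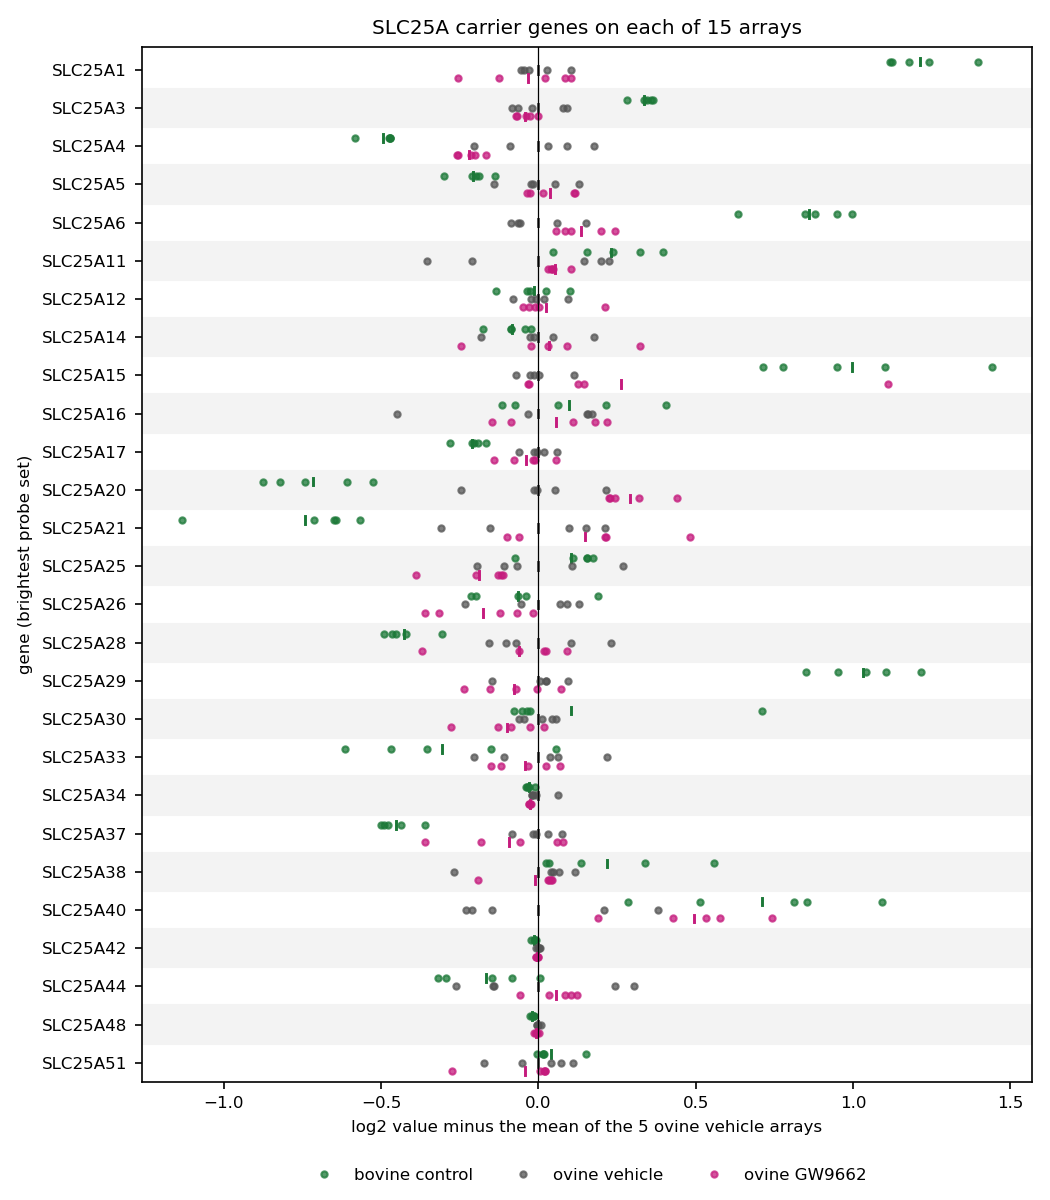
Each of the 27 carrier genes on every array, as the log2 value minus the gene's mean over the 5 ovine vehicle arrays (horizontal axis); points are arrays, short vertical bars group means, green bovine control, grey ovine vehicle and magenta ovine GW9662. The bovine means of SLC25A1, SLC25A29 and SLC25A15 lie farthest to the right and those of SLC25A20 and SLC25A21 farthest to the left. The GW9662 points of SLC25A20 all lie right of the vehicle points, those of SLC25A40 do so on 4 of 5 arrays, and 1 point of SLC25A15 stands far to the right.

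Of the 7 carriers of cofactors and other nucleotides, 2 passed in the bovine comparison, 1 in each direction. Beside them, 21.9% of all named genes passed as higher and 27.4% as lower in bovine. SLC25A40, which brings glutathione into the matrix, had the largest GW9662 value of all members: 3.23, 3.25, 3.67, 3.84 and 3.31 in vehicle, 3.65, 3.89, 3.99, 4.20 and 4.04 with GW9662 and 4.31, 3.97, 3.74, 4.27 and 4.55 in bovine control. The lowest GW9662 array fell below the 2 highest vehicle arrays, so these groups overlapped. The GW9662 difference of 0.49 (SE 0.15, 95% interval 0.16 to 0.83) did not pass (adjusted p = 0.217). In bovine control the gene was higher by 0.71 (SE 0.18, adjusted p = 0.014), with overlapping arrays, a sign that turned with the 3′ minus 5′ covariate. SLC25A17, a carrier of cofactors in the peroxisomal membrane and thus no mitochondrial protein despite its family, read 9.24 to 9.35 in bovine control, 9.46 to 9.58 in vehicle and 9.38 to 9.57 with GW9662. Its bovine difference of -0.21 was small but outside the spread (SE 0.027, adjusted p = 0.000319).

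SLC25A26, which brings S-adenosylmethionine into the matrix, ranged over 4.94 to 5.30 in vehicle, 4.81 to 5.15 with GW9662 and 4.96 to 5.36 in bovine control, all overlapping. Its GW9662 difference was -0.18 (adjusted p = 0.259) and its bovine difference -0.066 (adjusted p = 0.561). SLC25A33, a pyrimidine nucleotide carrier, averaged 7.32 ± 0.26 in bovine control, 7.63 ± 0.16 in vehicle and 7.59 ± 0.093 with GW9662, and its bovine difference of -0.31 did not pass (adjusted p = 0.0803). SLC25A16, linked to coenzyme A transport, averaged 7.04 ± 0.22 in bovine control, 6.94 ± 0.26 in vehicle and 6.99 ± 0.16 with GW9662, and the groups overlapped. SLC25A51, the NAD carrier, averaged 5.34 ± 0.064 in bovine control, 5.30 ± 0.11 in vehicle and 5.26 ± 0.13 with GW9662, again with overlap. SLC25A42, which carries coenzyme A, was dim on all arrays (1.79 in bovine control, 1.80 in vehicle and 1.80 with GW9662).

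The iron carriers SLC25A37 and SLC25A28, known as mitoferrins, were both lower in bovine control (27.4% of all named genes passed as lower). SLC25A37 read 8.10, 8.15, 8.23, 8.09 and 8.11 in bovine control against 8.62, 8.66, 8.58, 8.50 and 8.57 in vehicle and 8.41, 8.65, 8.23, 8.53 and 8.67 with GW9662. The bovine arrays lay below every vehicle array, while 1 GW9662 array reached down to the top of the bovine range. Its bovine difference was -0.45 (SE 0.036, adjusted p = 1.32e-05) and its GW9662 difference -0.093 (adjusted p = 0.443). SLC25A28 read 6.37, 6.34, 6.48, 6.30 and 6.33 in bovine control, 6.69, 7.02, 6.89, 6.63 and 6.72 in vehicle and 6.81, 6.88, 6.42, 6.73 and 6.81 with GW9662, with the bovine group below vehicle throughout. Its bovine difference was -0.43 (SE 0.075, adjusted p = 0.00233), and both iron carriers stayed negative under the 3 array scalings.

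The relatives of the uncoupling proteins, SLC25A14 and SLC25A30, did not pass in either comparison. SLC25A14 averaged 3.51 ± 0.059 in bovine control, 3.60 ± 0.13 in vehicle and 3.63 ± 0.21 with GW9662. SLC25A30 ranged over 3.26 to 4.05 in bovine control, where 1 array stood apart, 3.28 to 3.39 in vehicle and 3.06 to 3.35 with GW9662, and its GW9662 difference was -0.10 (adjusted p = 0.269). SLC25A34 and SLC25A48, for which no substrate is named here, were dim on all arrays. SLC25A34 was at 2.42 to 2.50 in vehicle and 2.41 to 2.41 with GW9662, so its lack of overlap is a difference of -0.028 between dim values (adjusted p = 0.301). SLC25A48 averaged 1.98 in bovine control, 2.00 in vehicle and 1.99 with GW9662.

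In the TOM complex, which admits precursors through the outer membrane, TOMM40 and TOMM22 were higher and TOMM7 lower in bovine control than in ovine vehicle, TOMM5, TOMM6 and the brighter TOMM70 probe set did not pass, and none passed for GW9662. TOMM40 forms the channel and read 6.67, 6.53, 6.44, 6.39 and 6.48 in bovine control, 5.78, 5.93, 5.86, 5.35 and 5.69 in vehicle and 5.80, 5.77, 5.52, 5.80 and 5.30 with GW9662. All bovine arrays were above all ovine ones. The bovine difference was 0.78 (SE 0.11, 1.71-fold, adjusted p = 0.000487), the largest among import genes, and the GW9662 difference was -0.085 (adjusted p = 0.672).

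TOMM22, the receptor that organises the complex, averaged 8.96 ± 0.10 in bovine control, 8.64 ± 0.15 in vehicle and 8.61 ± 0.076 with GW9662 and was higher in bovine by 0.32 (adjusted p = 0.0114), although the highest vehicle array passed the lowest bovine one. TOMM7, a small subunit that regulates the complex, went the other way: 9.37, 9.51, 9.44, 9.50 and 9.37 in bovine control, 9.70, 9.91, 9.82, 9.66 and 9.81 in vehicle and 9.62, 9.71, 9.62, 9.74 and 9.73 with GW9662. The bovine arrays lay below all vehicle arrays, with a difference of -0.34 (SE 0.051, adjusted p = 0.000863), and the GW9662 difference of -0.10 did not pass (adjusted p = 0.26). The signals of the channel and this subunit thus differed in opposite directions, on bovine probes whose binding of ovine RNA was not tested. In the limma fit with the 3′ minus 5′ covariate both kept their sign, but neither passed. TOMM40 was at 0.90 there (adjusted p = 0.143) and TOMM7 at -0.41 (adjusted p = 0.156). The other small subunits did not pass. TOMM5 averaged 6.38 ± 0.26 in bovine control, 6.50 ± 0.25 in vehicle and 6.50 ± 0.087 with GW9662. TOMM6 ranged over 9.44 to 9.61 in bovine control, 9.52 to 9.68 in vehicle and 9.36 to 9.64 with GW9662, with a GW9662 difference of -0.14 (adjusted p = 0.236).

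TOMM34 bears the family name but is known as a cytosolic cochaperone of HSP70 and HSP90 and not as a subunit of the complex. It read 8.45, 8.37, 8.47, 8.22 and 8.40 in bovine control and 8.19, 7.86, 7.73, 7.57 and 7.69 in vehicle. One vehicle array came close to the lowest bovine array without reaching it, and the bovine difference was 0.58 (SE 0.11, adjusted p = 0.0035). With GW9662 it ranged over 7.66 to 7.84 (difference -0.057, adjusted p = 0.716). All 7 genes with TOMM names had a negative GW9662 difference, from -0.14 to -0.0024, in the values as deposited. All 7 were also negative with a second quantile normalisation, but after centring of the arrays 2 were positive and 5 negative. None of the 7 passed under any of these.

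The TIM23 complex and its motor, which draw presequence proteins inward, gave 0 of 5 genes past the threshold in either comparison. Of all named genes 49.2% passed in the bovine comparison and 0.218% for GW9662, and the difference from these shares was not tested. TIMM23, the channel, ranged over 9.74 to 9.97 in bovine control, 9.69 to 9.93 in vehicle and 9.70 to 9.86 with GW9662, with a bovine difference of 0.026 (95% interval -0.10 to 0.15) and a GW9662 difference of -0.032 (-0.14 to 0.077). Both intervals hold 0, and the 3 groups overlapped. TIMM17B, a partner of the channel, read 6.65, 6.45, 6.26, 6.46 and 6.39 in vehicle and 6.21, 6.25, 6.23, 5.96 and 6.41 with GW9662, and averaged 6.58 ± 0.13 in bovine control. The GW9662 group lay lower with overlap, and the difference of -0.23 (SE 0.092, adjusted p = 0.221) did not pass.

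TIMM50, the receptor for presequences, and TIMM44, which tethers the matrix HSP70 motor, had the largest spread of the import genes in vehicle (SD 0.385 and 0.392), and TIMM44 in the other groups too. TIMM50 ranged over 6.36 to 6.69 in bovine control, 5.77 to 6.72 in vehicle and 6.21 to 6.66 with GW9662. TIMM44 ranged over 4.44 to 5.05, 3.83 to 4.77 and 4.30 to 5.25 in the same order. The GW9662 intervals reached from -0.34 to 0.47 for TIMM50 and from -0.40 to 0.63 for TIMM44, so moderate changes of these 2 genes were not detectable with 5 arrays a group. Their bovine differences were 0.10 and 0.25 (adjusted p = 0.629 and 0.304). Over 20 alternative settings these ran from -0.74 to 0.19 for TIMM50 and from -0.81 to 0.33 for TIMM44. The sign turned in 4 settings for TIMM50 and in 1 for TIMM44. TIMM21, which links the complex to the respiratory chain, averaged 7.37 ± 0.17 in bovine control, 7.31 ± 0.16 in vehicle and 7.45 ± 0.13 with GW9662, and its GW9662 difference of 0.14 did not pass (adjusted p = 0.31).

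The small TIM chaperones escort carriers across the intermembrane space to the TIM22 complex, and 1 of the 6 genes of this route passed, for the bovine comparison. In that comparison 49.2% of all named genes passed, and the difference from this share was not tested. TIMM8A, mutated in deafness-dystonia syndrome, read 8.23, 8.35, 8.27, 8.31 and 8.20 in bovine control and 8.47, 8.34, 8.38, 8.54 and 8.56 in vehicle. It was lower in bovine by a small margin with 1 bovine array inside the vehicle range (-0.18, SE 0.049, adjusted p = 0.0182), and its GW9662 arrays ranged over 8.35 to 8.48. With each array centred on its median this was the 1 import call that was lost. TIMM9, which forms the main chaperone ring with TIMM10, read 8.02, 7.81, 8.08, 8.06 and 8.08 in vehicle and 8.15, 8.14, 8.05, 8.19 and 8.29 with GW9662, and averaged 8.15 ± 0.057 in bovine control. Only 1 GW9662 array lay within the vehicle range, yet the difference of 0.15 (SE 0.061, adjusted p = 0.221) did not pass.

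Its partner TIMM10 averaged 6.78 ± 0.17 in bovine control, 6.87 ± 0.21 in vehicle and 6.93 ± 0.12 with GW9662, with a GW9662 difference of 0.058 (adjusted p = 0.703), so the ring's subunits were not shown to move together. TIMM8B ranged over 7.86 to 8.09 in bovine control, 7.89 to 8.27 in vehicle and 7.85 to 7.98 with GW9662, and its GW9662 difference was -0.12 (adjusted p = 0.27). TIMM13, the partner of the TIMM8 proteins, averaged 9.01 ± 0.14 in bovine control, 8.93 ± 0.042 in vehicle and 8.92 ± 0.089 with GW9662. TIMM22, the channel that inserts carriers, averaged 6.06 ± 0.051 in bovine control, 6.06 ± 0.19 in vehicle and 6.04 ± 0.10 with GW9662, and its bovine and GW9662 differences were -0.0011 and -0.017 (adjusted p = 0.992 and 0.906). TOMM20, TIMM17A and SLC25A13, a receptor, a channel subunit and a second aspartate/glutamate carrier that were to be described whatever their values, were not analysed here, since no tested probe set bore their symbol alone.

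**Figure D3:**
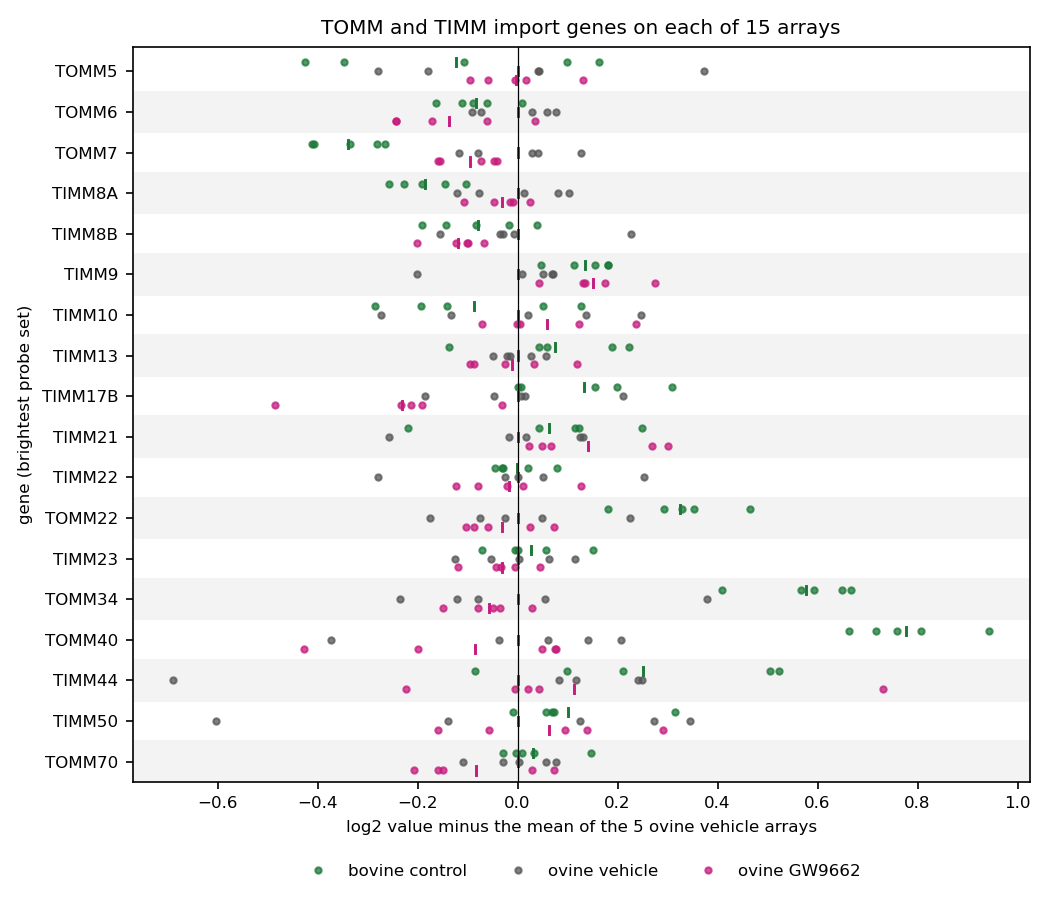
Each of the 18 import genes on every array, as the log2 value minus the gene's mean over the 5 ovine vehicle arrays (horizontal axis); points are arrays, short vertical bars group means, green bovine control, grey ovine vehicle and magenta ovine GW9662. The bovine points of TOMM40 lie to the right of all ovine points and those of TOMM7 lie to the left of all vehicle points, while the wide vehicle spread of TIMM44 and TIMM50 covers most of their other arrays.

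For GW9662, 1 of the 61 member probe sets did pass, where 0.183% of all 24016 did (44 probe sets), and it belongs to TOMM70. The receptor TOMM70 had 2 probe sets. The brighter read 9.67, 9.79, 9.65, 9.64 and 9.61 in bovine control, 9.61, 9.64, 9.53, 9.70 and 9.72 in vehicle and 9.48, 9.49, 9.71, 9.43 and 9.67 with GW9662, with all groups overlapping. The dimmer, at well above the dim limit, read 8.77, 9.05, 8.90, 8.93 and 9.05 in bovine control, 8.22, 8.18, 8.33, 8.29 and 8.38 in vehicle and 8.63, 8.75, 8.82, 8.71 and 8.71 with GW9662. On it every vehicle array lay below every array of both other groups.

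The dimmer probe set rose with GW9662 by 0.45 (SE 0.045, 95% interval 0.34 to 0.55, 1.36-fold, adjusted p = 0.0117), whereas the brighter one differed by -0.083 (SE 0.062, 95% interval -0.22 to 0.057, adjusted p = 0.379). The intervals do not meet, so the signals of the gene's probe sets moved unequally. Against ovine vehicle the dimmer was 0.66 higher in bovine control (adjusted p = 3.22e-05) and the brighter 0.031 (adjusted p = 0.557). Both comparisons share the 5 vehicle arrays, which are the low group on the dimmer probe set. Its GW9662 call held in 16 of 18 alternatives, every omission of 1 array included, and was lost with the replicate number as a block (adjusted p = 0.0871) and in the fit with the 3′ minus 5′ measure (0.43, adjusted p = 0.521). Which transcripts or gene regions the probe sets cover was not analysed here, and the dimmer one was followed up after its value was seen.

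In the bovine comparison several genes also read differently by probe set. Of the 45 genes, 12 had more than 1 probe set, 28 in all. SLC25A5 gave opposite answers: its brighter probe set was -0.21 in bovine, as above, while the other read 10.72, 10.82, 10.64, 10.66 and 10.69 in bovine control and 10.31, 10.40, 10.30, 10.21 and 10.26 in vehicle, higher by 0.41 (SE 0.043, adjusted p = 9.61e-05). The direction of SLC25A5 between the bovine and ovine arrays is therefore uncertain. The 3 probe sets of SLC25A6 differed by 0.86, 0.039 and 0.37 from the brightest to the dimmest (adjusted p = 2.2e-05, 0.534 and 0.0139), all positive but unequal in size. SLC25A4, SLC25A5 and SLC25A6 are close paralogs, and probes for one may bind RNA of another, so the split of signal among them is uncertain.

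Other genes differed by probe set mainly among dim values. TOMM34 had 2 further probe sets, both dim, which differed in bovine by 0.29 (adjusted p = 0.0415) and -0.017 (adjusted p = 0.405). The dim second probe set of SLC25A25 was lower in bovine (-0.13, adjusted p = 0.0427), unlike the brighter one. Both probe sets of TIMM22 differed by less than 0.01 in the bovine comparison.

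**Figure D4:**
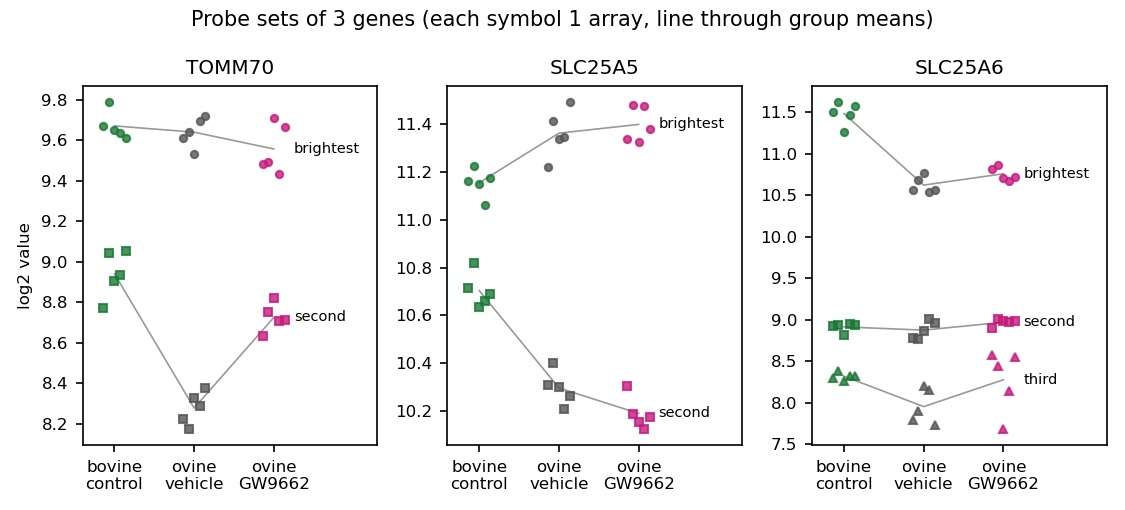
Log2 values (vertical axis, a different scale in each panel) of every probe set of TOMM70, SLC25A5 and SLC25A6 in the 3 groups; each symbol is 1 array, and grey lines join the group means. The second TOMM70 probe set is low in ovine vehicle alone (8.28, against 8.73 and 8.94) where the brightest is level, and the SLC25A5 probe sets slope in opposite directions from bovine control to ovine vehicle.

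Genes that work beside the carriers and the import machinery were examined as 4 further lists, and none of their members passed for GW9662. Of 14 measured import partners (22 listed: processing peptidases, the matrix HSP70 and HSP60 systems, assembly factors), 3 passed between bovine control and ovine vehicle, where 49.2% of all named genes did. IMMP2L, a subunit of the inner membrane peptidase, was lower in bovine (4.83 ± 0.23 against 6.28 ± 0.24, -1.45, adjusted p = 5.06e-05). OXA1L, the insertase of the inner membrane, was higher (10.24 ± 0.089 against 9.79 ± 0.091, 0.45, adjusted p = 0.000204), as was by a small margin HSPD1, the matrix chaperonin (0.10, adjusted p = 0.0274). The import partner with the smallest p for GW9662 was MTX2, an outer membrane import component, at 9.08 in vehicle and 9.24 with GW9662 (adjusted p = 0.217).

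Among 11 measured transporters and carrier-like proteins outside the SLC25A names (12 listed, with MTCH1 and MTCH2 of the outer membrane among them), 3 were higher and 2 lower in bovine control, again beside 49.2% of all named genes in both directions. The serine transporter SFXN1 was higher by 1.38 (4.81 ± 0.15 against 3.44 ± 0.10, adjusted p = 1.26e-06), its relative SFXN3 by 0.42 (adjusted p = 0.0024) and MPC2, a subunit of the pyruvate carrier, by 0.24 (adjusted p = 0.00399). SFXN4 was lower (-0.88, adjusted p = 0.000201). UCP1, the uncoupling protein of brown fat, was dim on all arrays, so its call rests on a difference of -0.035 between dim values. For GW9662 the smallest p were those of MPC2 (-0.13) and UCP1 (-0.027), each with an adjusted p of 0.217.

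Of 6 measured outer membrane pores and calcium uniporter genes (9 listed), 1 passed in the bovine comparison: VDAC3, a pore of the outer membrane, was lower in bovine (10.45 ± 0.058 against 10.79 ± 0.081, adjusted p = 0.00031). VDAC1, the main pore, had the smallest p for GW9662 (9.85 in vehicle and 9.98 with GW9662, adjusted p = 0.223). Of 5 measured regulators of mitochondrial biogenesis (9 listed), 1 passed there, and both counts stand beside the same 49.2%. That gene, PPARGC1A, the coactivator PGC-1α that works with PPARγ, was dim in all groups (2.75 in bovine control, 2.86 in vehicle and 2.77 with GW9662). Its bovine difference of -0.11 passed (adjusted p = 0.0309) between dim values, and its GW9662 difference of -0.092 did not (adjusted p = 0.217). The mitochondrial transcription factors TFB1M and TFB2M differed by 0.37 and 0.15 for GW9662, neither past the threshold (adjusted p = 0.326 and 0.367).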

How the data were processed

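Total RNA of 15 cell samples was labelled and hybridised to bovine arrays, 1 array each. The deposited table holds log2 values of 24128 probe sets, which the authors computed with RMA (version not given) according to the submitters' processing notes. This method subtracts background, forces the probes of all arrays to 1 distribution and combines the probes of a set. It thus reduces shifts of a whole array, though the array medians of the deposited values still ran from 3.18 to 3.27. Without the 112 array controls, 24016 were tested; of these, 13292 had 1 symbol, 86 several and 10638 none in an annotation that may be old. Each comparison was fitted on the 10 arrays of its groups in R 4.3.3 by limma 3.58.1 (lmFit, then eBayes), and p-values were adjusted (Benjamini-Hochberg) over all 24016. The number of arrays limits the precision, and the fits were tested on simulated data. Members, lists and tests were chosen with earlier results of these data known. Every member is named. Array values or ranges are given for the 10 carriers and 6 import genes of smallest p for GW9662, for up to 8 carriers and 4 import genes per direction that passed without overlap in bovine control, and for 18 genes whatever their values; lists give up to 4 genes that passed, or 2 of smallest p. Deviations of same-numbered arrays correlated between -0.19 and 0.17 for GW9662 and between -0.097 and 0.094 for bovine control. These few values gave no sign that the numbers pair samples, but they cannot exclude it. Alternatives were array scaling, a filter on dim probe sets, the variance model, all 15 arrays, a replicate block, a 3′ minus 5′ covariate, array weights, the choice of probe set and leaving out each array.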

Additional observations from a re-analysis of the deposited data

Results flagged for a closer look

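In 16 of 135 groups of 5 arrays (11.9%, where chance gives about 1 in 20), the highest or lowest array stood apart by Dixon's test at a critical value of 0.71. Among carriers in bovine control these were SLC25A30 in replicate 1 (4.05, others 3.26 to 3.31), SLC25A25 in replicate 3 (3.20, others 3.39 to 3.45), SLC25A51 in replicate 4 (5.45, others 5.29 to 5.32), SLC25A21 in replicate 5 (2.75, others 3.17 to 3.32) and SLC25A4 in replicate 5 (8.07, others at 8.18). With GW9662 they were SLC25A12 in replicate 1 (7.60, others 7.34 to 7.39), SLC25A11 in replicate 2 (6.32, others 6.25 to 6.27), SLC25A51 in replicate 2 (5.03, others 5.30 to 5.32), SLC25A15 in replicate 3 (3.54, others 2.40 to 2.57) and SLC25A38 in replicate 4 (5.76, others 5.98 to 6.0). In vehicle they were SLC25A34 in replicate 1 (2.50, others 2.42 to 2.43) and SLC25A38 in replicate 4 (5.69, others 5.99 to 6.07).

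Among import genes, TIMM44 stood apart in 2 groups, low in vehicle replicate 1 (3.83, others 4.61 to 4.77) and high in GW9662 replicate 1 (5.25, others 4.30 to 4.57). TIMM50 was high in bovine control replicate 4 (6.69, others 6.36 to 6.45), and TIMM9 was low in vehicle replicate 2 (7.81, others 8.02 to 8.08). The 2 GW9662 and vehicle groups of SLC25A38 both held 1 low array, each with the number 4, a number not known to pair samples.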

How the results depend on the processing

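For GW9662, 0 carriers and 0 import genes passed under every alternative run, the replicate block included (0 and 0). In the settings that left out no array, the calls over all named genes went from 20 to between 0 (block and 3′ minus 5′ covariate) and 88 (all 15 arrays). For bovine control, the covariate left 3 carriers of 13 and 1 import gene of 5, and put 1 import gene, TOMM34 (1.20), above 2-fold; the replicate block gave 12 and 5. Other settings gave 12 to 15 carriers and 4 to 7 import genes; leaving out 1 array gave 13 to 14 carriers, 5 import genes and 1 to 3 carriers above 2-fold. Averaging the probe sets turned SLC25A5 to 0.10 (adjusted p = 0.0554), and the covariate turned the dimmest SLC25A6 probe set to -0.17 (adjusted p = 0.751). Averaging also brought TOMM70 past the threshold in bovine control (0.35, adjusted p = 0.000107). The median of import genes moved from -0.031 to -0.087 for GW9662 and from 0.047 to -0.0043 for bovine control with a second quantile normalisation, and to -0.032 there with the covariate. Among 31 GW9662 values, the sign of uncalled ones turned for 5 with centring and 12 with the covariate. Apart from the covariate's construction, which largely coincides with the groups, the cause of these shifts was not tested. Signal over background is not recorded, so dim values have no order.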
